A study of Mus musculus with 17 samples.

Results

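LYVE1+CX3CR1+ and MHCII+CD11c+ macrophages, 2 of the macrophage subsets of the mouse synovium (the membrane that lines a joint), were compared 8 h after immune complexes (IC, antibody bound to its antigen) had been given into a vein. The comparison used 5 of the 17 bulk RNA-seq libraries of the study, chosen by their labels alone: the 3 libraries labelled Lyve1_IC and the 2 labelled CD11c_IC. All mice, controls of the study included, were labelled Fcgr2b-KO, a germline knockout of the Fc receptor that inhibits responses to immunoglobulin G, so no result here is from mice labelled as having that receptor. By the methods of the study the mice were adult, the IC were ovalbumin bound by rabbit antibodies, and cells of the knee synovium were sorted by flow cytometry as MHCII-Ly6C-LYVE1+CX3CR1+ or as MHCII+CD11c+. Of 22859 genes in the count table, 15272 passed a filter on low counts and were tested. How many mice gave each library, and whether both subsets came from the same mice, was not given in the sources used here. The p-values rest on the spread between libraries within groups, estimated over all 17 libraries of the study, and part of that spread may be technical.

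Resident macrophages of the synovial lining form a sheet over the tissue, are largely kept up without blood monocytes, and carry scavenger receptors, complement regulators and receptors for dying cells. Macrophages with MHC class II lie below the lining, are replaced faster from monocytes, and present antigen to CD4+ T cells. IC act on both through activating Fc gamma receptors, which signal through the common gamma chain and the kinase SYK to chemokine and cytokine genes, while FCGR2B, missing by label in these mice, normally holds that signal back.

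The LYVE1+CX3CR1+ libraries held 2301913 to 3348248 counts and the MHCII+CD11c+ libraries 5736314 and 7045387. Drawn down to the smallest total, the former had 11547 to 13831 genes with at least 1 count and the latter 16073 and 16728, so depth and genes detected both differed between the groups without overlap. For each library, log2 CPM minus the gene's mean over all 17 libraries was also regressed on log2 gene length. This relative slope was higher in the LYVE1+CX3CR1+ libraries (0.0187 to 0.0971) than in the MHCII+CD11c+ libraries (−0.0301 and −0.0114). Principal component 1 of the 5 libraries separated the subsets with 78.0% of the variance, and component 2 (15.2%) set LYVE1+CX3CR1+ library 3, which had the fewest counts, apart from the other 2 of its group. Correlations of log2 CPM within groups were 0.855 to 0.890 and 0.965. Counts of Fcgr2b, the gene labelled as deleted, were 562, 460 and 167 in the LYVE1+CX3CR1+ libraries and 896 and 642 in the MHCII+CD11c+ libraries (164, 145 and 69.3 against 132 and 118 CPM), at log2 fold change 0.02 ± 0.29, adjusted p = 0.98. The table holds 1 count per gene and cannot show which exons these reads came from, and their sequence is close to that of Fcgr3.

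Throughout, values of single libraries are CPM (counts scaled to a common library total, with TMM library sizes) in the order of their labels, the 3 LYVE1+CX3CR1+ libraries before the 2 MHCII+CD11c+ libraries. A log2 fold change is LYVE1+CX3CR1+ over MHCII+CD11c+, from the quasi-likelihood test of edgeR. The value after ± is the size of that change divided by the square root of its F statistic. It is an approximate SE and can be too small for genes with few counts in a group. A gene is called at an adjusted p under 0.05 (Benjamini-Hochberg over all genes tested). With at most 3 counts in each library of a group the gene is taken to be at the floor, 0.441 to 1.24 CPM in these libraries, and the fitted fold change is then not given. In its place stands a bound against 3 counts per library where the whole group had none, or otherwise the ratio of summed counts, scaled for library size, with a 95% exact interval for counting error. Fewer cells of a type and less RNA per cell cannot be told apart in such libraries.

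The edgeR test called 1824 of 15272 genes (11.9%), of which 538 (3.52% of genes tested) were higher and 1286 (8.42%) lower in the LYVE1+CX3CR1+ subset. Counts of called members in the gene lists below are to be read against these shares. A list count near them is no result about the list. Among the called genes, 1446 differed by more than 2-fold, 404 of them higher and 1042 lower. The median log2 fold change was 1.45 over the genes called higher and −1.84 over those called lower with genes at the floor set to their bound (−2.32 as fitted), against −0.12 over all genes. Libraries of the subsets did not overlap for 1818 of the 1824, and for 40.9% of all genes tested. Of the genes called lower, 372 were at the floor in LYVE1+CX3CR1+ macrophages, 282 of them with no count in any library, and their median level in MHCII+CD11c+ macrophages was 6.21 CPM. With all libraries drawn to equal depth, 265 of the 372, 672 of the other 914 and 454 of the 538 genes were still called, and 1809 genes were called with an offset for gene length. The part of detection and of the length slope in the rest was not tested. Without MHCII+CD11c+ library 2 the count fell to 666 (106 higher and 560 lower), and without library 1 to 1026 (265 and 761), where the single library left is assumed to vary like those of other groups. The split of calls also moved with the scaling: 42.7% of calls were in the higher direction with DESeq2, against 29.5% here.

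**Figure D1:**
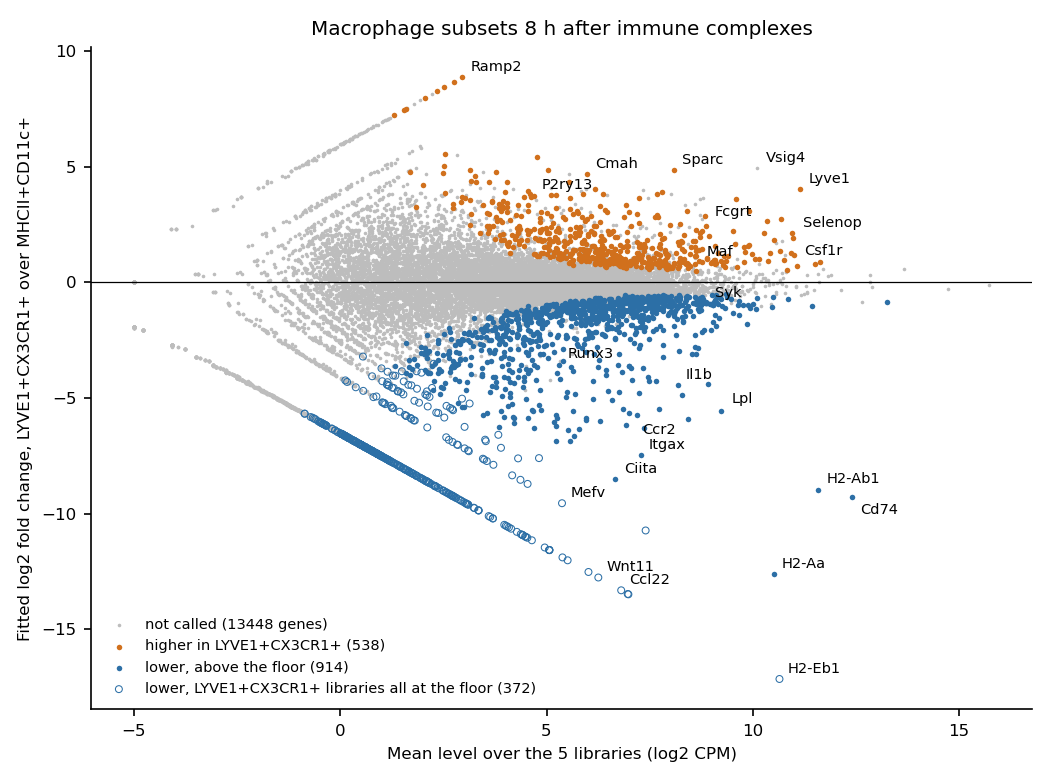
Fitted log2 fold change of LYVE1+CX3CR1+ over MHCII+CD11c+ macrophages after IC (vertical axis) against mean log2 CPM (horizontal axis), 1 point per gene for the 15272 genes tested. Colours mark 538 genes called higher, 914 called lower above the floor, 372 called lower with LYVE1+CX3CR1+ libraries at the floor, and 13448 not called; the floor genes form the lowest fans of points at the left.

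The genes of the sort followed the labels, although not all reached the test. Lyve1, the hyaluronan receptor of the first gate, had 3469, 3272 and 4116 against 303 and 137 CPM (log2 fold change 4.04 ± 1.08, adjusted p = 0.0326). Cx3cr1, the fractalkine receptor of the same gate, had 244, 254 and 304 against 84.2 and 54.8 CPM, without overlap, but was not called (log2 fold change 1.94 ± 0.84, adjusted p = 0.171). Itgax, which encodes CD11c, had 4.68, 1.26 and 0 against 331 and 443 CPM (log2 fold change −7.47 ± 0.58, adjusted p = 6.72e-07). Since these genes and those of MHC class II chose the cells, their difference is a check of the labels and not a result. Both subsets had the macrophage genes Adgre1 (F4/80, 654, 416 and 579.9 against 404 and 359 CPM) and Cd68 (744, 774 and 701 against 437 and 435 CPM). The monocyte gene Ly6c2 had no count in the LYVE1+CX3CR1+ libraries and 2.06 and 0.366 CPM in the MHCII+CD11c+ libraries.

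The 15 genes that were higher in LYVE1+CX3CR1+ macrophages with the smallest p, chosen among called genes whose libraries did not overlap, were of mixed function, and all 15 were called in each of 17 alternatives. Cmah, the enzyme that makes N-glycolylneuraminic acid, a sialic acid, had 91.3, 112 and 105 against 4.99 and 2.75 CPM (log2 fold change 4.70 ± 0.35, adjusted p = 3.64e-09). Fcgrt, the neonatal Fc receptor that returns immunoglobulin G from endosomes to the surface, had 702, 682 and 705 against 141 and 116 CPM (log2 fold change 2.44 ± 0.23, adjusted p = 1.53e-07). Selenop, which carries selenium, had 2710.3, 3037 and 2901 against 737 and 569 CPM (log2 fold change 2.14 ± 0.23, adjusted p = 1.25e-06). Tcn2, which carries vitamin B12, had 369.5, 343 and 418 against 80.2 and 55 CPM (log2 fold change 2.48 ± 0.27, adjusted p = 1.25e-06). Hpgds, which makes prostaglandin D2, had 116, 146 and 149 against 20.9 and 12.1 CPM (log2 fold change 3.04 ± 0.36, adjusted p = 4.43e-06). Nid2, a basement membrane protein, had 62, 105 and 80.9 against 11.5 and 8.06 CPM (log2 fold change 3.07 ± 0.35, adjusted p = 1.94e-06). Tgfbr2, the type II receptor of TGF-beta, had 635, 471 and 729 against 156 and 119 CPM (log2 fold change 2.15 ± 0.28, adjusted p = 1.54e-05). Maf, a transcription factor of resident macrophages, had 617, 553 and 627 against 165 and 143 CPM (log2 fold change 1.96 ± 0.25, adjusted p = 8.21e-06).

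Tns1, which ties integrins to actin, had 1637, 1762 and 1939 against 467 and 351 CPM (log2 fold change 2.12) and Ssh2, a phosphatase that activates cofilin, had 506, 577 and 547 against 197 and 115 CPM (1.80). Glul, glutamine synthetase, had 1059.7, 1074 and 1026 against 382 and 283 CPM (1.66). Sesn1, a stress-induced inhibitor of mTORC1, had 117, 128 and 152 against 35.3 and 26.9 CPM (2.08). Serinc3, Stard8 and Arhgap23 completed the list at log2 fold changes of 1.84, 1.79 and 1.61. Adjusted p-values of the 15 lay between 3.64e-09 and 1.97e-05.

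**Figure D2:**
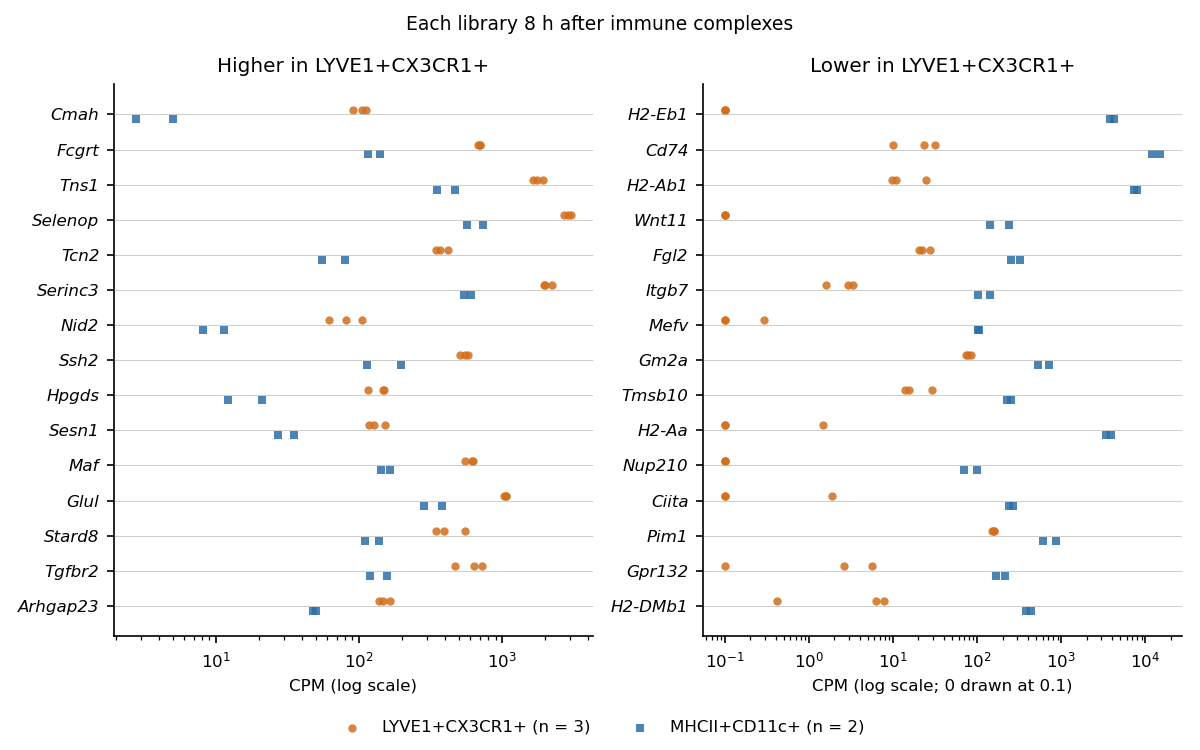
CPM in each library (log axis, a value of 0 drawn at 0.1) for the 15 genes higher and the 15 lower in LYVE1+CX3CR1+ macrophages with the smallest p. Points are the 3 LYVE1+CX3CR1+ and 2 MHCII+CD11c+ libraries, which by the rule of choice do not overlap for these 30 genes.

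MHC class II genes were among the largest differences of the lower side. Of 13 genes of MHC class II presentation, 10 were called lower and 0 higher, with a median log2 fold change of −6.30 (genes without counts at their bound), against −0.12 over all genes. The sort was on MHC class II protein, so the surface chains below are part of the gate, and the other members are shown beside them. The promoters of H2-Eb1, H2-Aa and H2-DMb1, 3 members with large differences in level, are shown because class II genes share a promoter module that the coactivator CIITA acts through. They run from 250 bases before to 50 after the start in RefSeq (GRCm38.p6), with capitals for the motif TGATTGG, the core of the Y box, found on either strand.
H2-Eb1, chr17:34305617-34305916, plus strand: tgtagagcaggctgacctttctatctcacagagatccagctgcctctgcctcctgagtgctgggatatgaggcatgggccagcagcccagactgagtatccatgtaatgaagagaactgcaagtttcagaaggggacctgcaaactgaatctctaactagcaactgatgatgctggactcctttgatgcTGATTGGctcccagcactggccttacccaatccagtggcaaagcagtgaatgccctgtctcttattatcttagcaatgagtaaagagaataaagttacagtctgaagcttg
H2-Aa, chr17:34287774-34288073, minus strand: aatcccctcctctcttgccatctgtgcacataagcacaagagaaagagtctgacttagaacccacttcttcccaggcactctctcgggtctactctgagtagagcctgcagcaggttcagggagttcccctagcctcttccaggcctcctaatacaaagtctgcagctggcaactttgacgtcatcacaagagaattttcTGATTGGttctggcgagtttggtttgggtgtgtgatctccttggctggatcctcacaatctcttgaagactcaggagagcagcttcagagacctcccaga
H2-DMb1, chr17:34152941-34153240, plus strand: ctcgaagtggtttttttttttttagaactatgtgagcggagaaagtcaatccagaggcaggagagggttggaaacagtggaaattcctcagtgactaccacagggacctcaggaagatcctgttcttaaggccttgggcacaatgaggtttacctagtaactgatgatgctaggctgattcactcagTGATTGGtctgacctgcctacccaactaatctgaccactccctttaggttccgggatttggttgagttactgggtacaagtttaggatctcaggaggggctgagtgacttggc
The motif begins 61, 50 and 63 bases before the start. It was chosen after the sequences had been seen. In the RefSeq table, 10 of the 13 genes had a promoter (11 promoters), and 7 of the 11 held the motif, against 7.82% of all 32851 promoters. The motif did not follow the calls. It was absent from the promoters of H2-DMa and Ifi30, which were called lower, and of Ctss, which was not called. It was present in those of H2-Oa and H2-Ob, which were not called. A match is a description of the sequence and not a bound site.

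H2-Eb1 (chromosome 17, 34305867 to 34316674, plus strand, GRCm38) encodes a surface beta chain and had no count in any LYVE1+CX3CR1+ library against 3837 and 4179 CPM (at least 3921-fold lower, adjusted p = 1.14e-16). H2-Aa, a surface alpha chain, had 1.46, 0 and 0 against 3364 and 3913 CPM (log2 fold change −12.62 ± 0.64, adjusted p = 2.7e-08). H2-Ab1, its partner beta chain, had 24.6, 9.76 and 10.8 against 7263 and 7989.8 CPM (log2 fold change −8.97 ± 0.39, adjusted p = 1.49e-10). H2-Eb1 and H2-Aa were thus at or near the floor in the LYVE1+CX3CR1+ libraries, while H2-Ab1 was above it in each, and all 3 were far higher in the other subset. Ciita, the coactivator that class II genes require, had 0, 1.89 and 0 against 238 and 269 CPM (log2 fold change −8.52 ± 0.58, adjusted p = 6.16e-08). H2-DMa and H2-DMb1, which encode the molecule that loads peptide, had 13.2, 4.09 and 0 against 280.3 and 338 CPM (log2 fold change −5.66 ± 0.67, adjusted p = 0.000138) and 7.90, 6.29 and 0.415 against 379 and 432 CPM (log2 fold change −6.30 ± 0.45, adjusted p = 1.18e-07). Ifi30, a lysosomal reductase that opens disulfide bonds of antigens, differed less, at 166, 192 and 184 against 501 and 527 CPM (log2 fold change −1.51 ± 0.20, adjusted p = 2e-05). Ctss, cathepsin S, which trims the invariant chain, had 2639, 2276 and 2322 against 2974 and 2349 CPM and was not called (log2 fold change −0.14 ± 0.43, adjusted p = 0.884). H2-Ob and H2-Oa, whose products dampen peptide loading, were not called either (adjusted p = 0.0638 and 0.0904).

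MHC class I presentation differed far less, with 5 of 14 genes called lower, 0 higher and a median of −0.50. Tap1, 1 of the chains of the peptide transporter, had 56.2, 29.9 and 63.1 against 204 and 179 CPM (log2 fold change −1.95 ± 0.28, adjusted p = 5.16e-05). Nlrc5, the class I counterpart of CIITA, had 57, 26.1 and 44.4 against 139.9 and 101 CPM (log2 fold change −1.50 ± 0.32, adjusted p = 0.00319). B2m, the light chain, had 1520.2, 1301 and 1231 against 1394 and 1149 CPM and was not called (log2 fold change 0.09 ± 0.21, adjusted p = 0.851). Without MHCII+CD11c+ library 1 only 1 of the 5 was called (Nlrc5 was at 0.0515), and without library 2, 3 were. Without LYVE1+CX3CR1+ library 2 or 3 the count was 3.

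Apart from class II, the 15 genes lower in LYVE1+CX3CR1+ macrophages with the smallest p were of mixed function, and each was called in all 17 alternatives. Wnt11, a secreted ligand of Frizzled receptors, had no count in any LYVE1+CX3CR1+ library against 140.3 and 242 CPM (at least 187-fold lower, adjusted p = 7.35e-10). Mefv, which encodes the inflammasome sensor pyrin, had 0.293, 0 and 0 against 106 and 102 CPM (ratio of pooled counts 936, 95% interval 168 to 36979.7, adjusted p = 3.64e-09). Nup210, a nuclear pore protein, had no count in any LYVE1+CX3CR1+ library against 69 and 98.4 CPM (at least 81.9-fold lower, adjusted p = 3.48e-08). All 3 were at the floor in LYVE1+CX3CR1+ macrophages. Itgb7, the integrin beta 7 chain, had 2.93, 1.57 and 3.32 against 102 and 140.4 CPM (log2 fold change −5.55 ± 0.40, adjusted p = 2.01e-09). Gpr132, a G protein-coupled receptor of leukocytes, had 2.63, 5.67 and 0 against 167 and 216 CPM (log2 fold change −6.02 ± 0.48, adjusted p = 9.79e-08). Others were present in both subsets. Fgl2, a prothrombinase, had 27.5, 20.1 and 22 against 319 and 252 CPM (log2 fold change −3.62 ± 0.26, adjusted p = 1.93e-09). Gm2a, the lysosomal activator of GM2 ganglioside breakdown, had 74.3, 78.4 and 85 against 533 and 704 CPM (log2 fold change −2.96 ± 0.22, adjusted p = 3.64e-09). Tmsb10, which binds actin monomers, had 29.3, 15.4 and 13.7 against 249 and 224 CPM (log2 fold change −3.59 ± 0.28, adjusted p = 4.97e-09). Pim1, a survival kinase, had 157, 160.2 and 149 against 613 and 873 CPM (log2 fold change −2.26 ± 0.20, adjusted p = 7.64e-08).

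Genes of lining and resident macrophages went the other way, 10 of 20 called higher and 0 lower in LYVE1+CX3CR1+ macrophages, with a median log2 fold change of 2.0. Libraries of the subsets did not overlap in the higher direction for 15 of the 20 (13.1% of all genes). F13a1, the coagulation factor XIII A chain, had 3083, 2623 and 2889.7 against 875 and 641 CPM (log2 fold change 1.92 ± 0.27, adjusted p = 5.12e-05). Gas6, which bridges dying cells to TAM receptors, had 689, 546 and 869 against 125 and 66.3 CPM (log2 fold change 2.87 ± 0.37, adjusted p = 6.54e-05). Cbr2, a carbonyl reductase, had 1012, 1314 and 1315 against 145 and 56.3 CPM (log2 fold change 3.59 ± 0.53, adjusted p = 0.000561). Timd4, a receptor for phosphatidylserine, had 173, 162 and 185 against 52.2 and 48.6 CPM (log2 fold change 1.78 ± 0.36, adjusted p = 0.00211). Sparc, a matrix protein of lining macrophages, had 344, 481 and 499 against 15.3 and 15.4 CPM (log2 fold change 4.84 ± 1.15, adjusted p = 0.0191). Vsig4, a complement receptor of the same cells, had 1581, 2016 and 1799 against 99.9 and 16.7 CPM, without overlap, yet was not called (log2 fold change 4.94 ± 2.04, adjusted p = 0.151). Mrc1 (2006, 1439.6 and 2179.9 against 1476 and 1334 CPM) and Siglec1 (150.4, 94.4 and 123 against 140.4 and 103 CPM) were not called either (adjusted p = 0.279 and 0.995). Only 4 of the 10 stayed called without MHCII+CD11c+ library 2, where adjusted p was above the threshold, among others, for Timd4 (0.0503), Stab1 (0.0929), Folr2 (0.187), Sparc (0.185) and Lyve1 (0.285). Without library 1, 7 did, and Sparc (0.148) and Lyve1 (0.129) did not. Lyve1, a gene of the gate counted in this list, was also not called without LYVE1+CX3CR1+ library 3 (0.0582).

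Genes for scavenging and for uptake of apoptotic cells included 10 of 22 called higher and 2 lower (3.52% and 8.42% of all genes), with a median of 0.88. Cd163, the haptoglobin-haemoglobin receptor, had 1468, 1033 and 1357 against 475 and 391 CPM (log2 fold change 1.57 ± 0.25, adjusted p = 0.0002). Stab1, a scavenger receptor for matrix proteins, had 2057, 1676 and 2154 against 414 and 201 CPM (log2 fold change 2.67 ± 0.51, adjusted p = 0.00415). Mertk, a TAM receptor for apoptotic cells, had 207, 224 and 302 against 86.1 and 52 CPM (log2 fold change 1.82 ± 0.39, adjusted p = 0.00441), while its relative Axl was lower, at 167, 160.2 and 99.6 against 305 and 251 CPM (log2 fold change −0.97 ± 0.22, adjusted p = 0.00391). Members of the TAM family therefore lay on opposite sides. Colec12, a collectin scavenger receptor, had 308, 271 and 319 against 62.4 and 21.4 CPM (log2 fold change 2.83 ± 0.57, adjusted p = 0.00573). Only 2 of the higher and 1 of the lower genes were called without MHCII+CD11c+ library 2, with adjusted p above the threshold, among others, for Timd4 (0.0503), Stab1 (0.0929), Mertk (0.0997), Colec12 (0.0807) and Pros1 (0.139). Without library 1 the counts were 7 and 0, and Axl was at 0.0808.

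Complement genes had 3 of 22 called higher and 3 lower (3.52% and 8.42% of all genes). On the higher side, C5ar1, the receptor for the anaphylatoxin C5a, had 479, 338 and 391 against 145 and 121 CPM (log2 fold change 1.60 ± 0.32, adjusted p = 0.00199). The lower genes were those of the alternative pathway, C3 (6.73, 0 and 0 against 174 and 131 CPM (log2 fold change −5.94 ± 1.25, adjusted p = 0.00925)) and Cfp, which encodes properdin (61.1, 25.8 and 108 against 323 and 373 CPM (log2 fold change −2.43 ± 0.63, adjusted p = 0.0282)), beside the gate gene Itgax. C1qa, C1qb and C1qc, the chains of the recognition molecule for IC-bound antibody, were higher in every LYVE1+CX3CR1+ library than in either of the others, with C1qa at 2269, 1974 and 2069 against 896 and 389 CPM, but were not called (adjusted p = 0.0639, 0.0679 and 0.0799). Over the alternatives the adjusted p of C1qa ran from 0.000407 to 0.443. Without MHCII+CD11c+ library 2 neither C5ar1 (adjusted p = 0.0519) nor Cfp (0.17) was called. Cfp also lost its call without MHCII+CD11c+ library 1 (0.0966), without LYVE1+CX3CR1+ library 1 (0.0747) or 2 (0.0587) and with a length offset (0.0573).

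Lysosomal genes were a broad group on the LYVE1+CX3CR1+ side, with 13 of 29 called higher and 3 lower and a median of 0.68. Most differences were near 2-fold. Grn, the progranulin gene, had 2511, 2259 and 2799.7 against 1198 and 901 CPM (log2 fold change 1.27 ± 0.21, adjusted p = 0.000232). Lamp1, a major protein of the lysosomal membrane, had 1334, 1367 and 1292 against 674 and 640.04 CPM (log2 fold change 1.02 ± 0.17, adjusted p = 0.000306). Lgmn, the asparaginyl protease legumain, had 1923, 1559 and 1896 against 844 and 642 CPM (log2 fold change 1.27 ± 0.23, adjusted p = 0.000514). Ctsd, an aspartic protease, had 1398, 1143 and 1433 against 481 and 383 CPM (log2 fold change 1.62 ± 0.32, adjusted p = 0.00236). The lower genes were Ctsh, an aminopeptidase (115, 116 and 97.5 against 328 and 290.4 CPM (log2 fold change −1.50 ± 0.23, adjusted p = 0.000107)), Psap, which encodes the saposin precursor (2107, 1724 and 2069.6 against 3694 and 4296 CPM (log2 fold change −1.02 ± 0.21, adjusted p = 0.00167)), and Ctsz (434, 437 and 509 against 726 and 687 CPM, adjusted p = 0.0462). The count fell to 3 higher and 2 lower without MHCII+CD11c+ library 2 and to 8 and 2 without library 1, Ctsd being at 0.0799 without library 2.

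Genes of dendritic cells were lower in LYVE1+CX3CR1+ macrophages for 13 of the 15 tested, with a median of −4.52, and 0 were higher. The 13 include Itgax, a gene of the gate and so no result. Flt3, the cytokine receptor that dendritic cells depend on, had 0.293, 0 and 0 against 42.3 and 47.3 CPM (ratio of pooled counts 401, 95% interval 71.7 to 15865, adjusted p = 2.34e-06). Ccr7, which guides cells to lymph nodes, had no count in any LYVE1+CX3CR1+ library against 68.6 and 98.6 CPM (at least 81.8-fold lower, adjusted p = 0.000157). Dpp4, a surface peptidase, had no count in any LYVE1+CX3CR1+ library against 42.8 and 63.8 CPM (at least 52.1-fold lower, adjusted p = 1.06e-05). The transcription factor Zbtb46 had 7.02, 6.61 and 10.8 against 39.4 and 49.7 CPM (log2 fold change −2.46 ± 0.42, adjusted p = 0.000296). Cd209a, the gene of a DC-SIGN relative, had 2.63, 0 and 1.24 against 80.1 and 146 CPM (log2 fold change −6.39 ± 0.75, adjusted p = 9.12e-05). Summed over the 18 members in the table, this list made up 288 to 378 CPM in the LYVE1+CX3CR1+ libraries and 1642 and 2076 CPM in the MHCII+CD11c+ libraries, of which Itgax gave 331 and 443 CPM, and 4 members (Ccr7, Clec9a, Dpp4 and Snx22) had no count in the former. Xcr1 and Cadm1 of conventional type 1 dendritic cells were not called, and Clec9a was too low to test. The share of dendritic cells within the MHCII+CD11c+ gate was not measured, and its part in the lower genes was not tested.

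Monocyte genes had 8 of 22 called lower and 0 higher, with a median of −1.20. Ccr2, the receptor that draws monocytes from blood, had 21.6, 14.8 and 4.15 against 721 and 970.2 CPM (log2 fold change −5.93 ± 0.59, adjusted p = 3.04e-05). Napsa, an aspartic protease of monocyte-derived cells, had no count in any LYVE1+CX3CR1+ library against 52.3 and 59.4 CPM (at least 54.6-fold lower, adjusted p = 1.63e-06). Itgal, the alpha chain of LFA-1, had 0, 3.78 and 0 against 78 and 98.2 CPM (log2 fold change −6.03 ± 0.74, adjusted p = 2.52e-05). S100a11, a calcium-binding protein, had 83.4, 70.2 and 62.2 against 261 and 288 CPM (log2 fold change −1.93 ± 0.24, adjusted p = 6.28e-06). Other members showed no such step, among them Lyz2, lysozyme, at 8647, 8434 and 6978 against 7349.6 and 5546 CPM (log2 fold change 0.31 ± 0.20, adjusted p = 0.352), which is nearly identical to Lyz1 and may share its reads. Vcan, the matrix proteoglycan versican, lay the other way at 461, 488 and 579.9 against 49.7 and 49.1 CPM without being called (log2 fold change 3.37 ± 1.13, adjusted p = 0.0809). The summed level of the list, led by Lyz2 and Fn1, was 16995 to 20961 against 19099 and 21183 CPM, so it overlapped, and Ly6c2, Chil3, Napsa, Ear2 and Gpr141 had no count in the LYVE1+CX3CR1+ libraries. Beside both lists, core macrophage genes were present in all libraries (7147 to 8469 against 5603 and 5883 CPM in sum), with 4 of 13 higher and 1 lower. Csf1r, the receptor that macrophages need to live, had 2729, 2256 and 2937 against 1181 and 1127 CPM (log2 fold change 1.19 ± 0.22, adjusted p = 0.000561). Lgals3, galectin-3, had 254, 164 and 141 against 818 and 809.5 CPM (log2 fold change −2.13 ± 0.38, adjusted p = 0.00182). Of the 4, only Csf1r was called without MHCII+CD11c+ library 2 (Cd68 was at 0.0803 and Mertk at 0.0997, among others), and Cd68 was at 0.0604 without library 1.

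Of 18 receptors and kinases that read IC, 2 were called higher and 3 lower (3.52% and 8.42% of all genes), with a median of −0.19. Besides Fcgrt, Fcgr3, the low-affinity activating receptor, was higher in LYVE1+CX3CR1+ macrophages, at 434, 388 and 376 against 269 and 248 CPM (log2 fold change 0.63 ± 0.18, adjusted p = 0.0253). Fcer1g, the common gamma chain, had 372, 412 and 469 against 273 and 320.3 CPM and Fcgr1, the high-affinity receptor, 111, 57.9 and 111 against 108 and 91.3 CPM, and neither was called (adjusted p = 0.115 and 0.949). Fcgr4, a further activating receptor, was low in both subsets (10.5, 3.15 and 0 against 12.3 and 9.16 CPM, adjusted p = 0.533). Downstream of the receptors, Syk had 355, 343 and 347 against 589 and 706 CPM (log2 fold change −0.89 ± 0.19, adjusted p = 0.00284), and its target Plcg2 had 186, 205 and 199.5 against 373 and 435 CPM (log2 fold change −1.04 ± 0.20, adjusted p = 0.00109). Fgr, a Src family kinase, had 69.3, 31.8 and 34.4 against 183 and 223 CPM (log2 fold change −2.16 ± 0.36, adjusted p = 0.000425). All 3 were lower without overlap. Inpp5d, the inhibitory phosphatase SHIP1, had 629, 665 and 677 against 485 and 429.5 CPM and was not called (log2 fold change 0.52 ± 0.19, adjusted p = 0.0734). Fcgr3 was not called without MHCII+CD11c+ library 1 (adjusted p = 0.133), library 2 (0.281) or LYVE1+CX3CR1+ library 1 (0.0592), nor Syk without MHCII+CD11c+ library 2 (0.1). Fcgr3 was not called in the test for at least 2-fold either, which its log2 fold change of 0.63 lies below. The lowest adjusted p of Fcgr3 over the 17 alternatives was 0.00106.

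Chemokine genes were lower in LYVE1+CX3CR1+ macrophages where they differed, 7 of 24 called lower and 0 higher, with a median of −0.65. Ccl2, which draws monocytes, had 103, 101 and 86.3 against 250.5 and 268 CPM (log2 fold change −1.42 ± 0.24, adjusted p = 0.000229). Ccl22 and Ccl17, ligands of CCR4 on T cells, had no count in any LYVE1+CX3CR1+ library against 98.4 and 463 CPM (at least 275-fold lower, adjusted p = 0.000639) and 0, 2.83 and 0 against 75.4 and 158 CPM (log2 fold change −6.84 ± 1.19, adjusted p = 0.00183). Ccl5, which draws T cells, had 0.585, 0 and 0 against 17.9 and 39.2 CPM (ratio of pooled counts 123, 95% interval 33.9 to 1023, adjusted p = 0.000412). Cxcl10, which draws T cells and natural killer cells, had 1.17, 12 and 12.9 against 46 and 53.1 CPM (log2 fold change −2.54 ± 0.70, adjusted p = 0.0248). Cxcl3, a neutrophil attractant, had 0.293, 0 and 0.415 against 32.2 and 24.2 CPM (ratio of pooled counts 129, 95% interval 35.4 to 1068, adjusted p = 0.0159). Other neutrophil attractants were not called, with Cxcl2 at 1237, 1119 and 775 against 1645 and 1478 CPM and Cxcl1 at 205, 170.3 and 197 against 348 and 245 CPM (adjusted p = 0.374 and 0.572). Ccl3 and Ccl7 overlapped between the subsets (126, 113 and 95 against 73.3 and 108 CPM, and 75.5, 83.1 and 49.8 against 91.7 and 69.8 CPM). Cxcl10 was not called without MHCII+CD11c+ library 1 or 2 (adjusted p = 0.0988 and 0.175), and Cxcl3 without any 1 of the LYVE1+CX3CR1+ libraries (up to 0.0626, the highest of its alternatives).

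Chemokine receptors had 2 of 16 called on each side, Ccr2 and Ccr7 lower (8.42% of all genes), and C5ar1 and Cmklr1 higher (3.52%). Cmklr1, the receptor for chemerin, had 355, 264 and 206 against 146 and 96.6 CPM (log2 fold change 1.18 ± 0.29, adjusted p = 0.00949). Neither of the higher genes was called without MHCII+CD11c+ library 2 (adjusted p = 0.0519 and 0.207).

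Among cytokines, their antagonists and mediators of pain, 9 of 25 genes were called lower and 2 higher, with a median of −0.47. Il1b had 35.7, 45.6 and 11.6 against 551 and 804 CPM (log2 fold change −4.44 ± 0.83, adjusted p = 0.00461). Il1rn, the antagonist of the same receptor, had 24, 36.2 and 7.88 against 253 and 318 CPM (log2 fold change −3.63 ± 0.50, adjusted p = 0.000243). Il6 had 0, 3.46 and 0 against 81.8 and 103 CPM (log2 fold change −6.22 ± 0.81, adjusted p = 0.000129). Ptgs2, the inducible cyclooxygenase that feeds prostaglandin synthesis, had 17, 22 and 9.96 against 153 and 184 CPM (log2 fold change −3.35 ± 0.50, adjusted p = 0.00028). For all 4, every LYVE1+CX3CR1+ library lay below both others. Il10, an anti-inflammatory cytokine, had 27.5, 15.4 and 4.56 against 52 and 56.4 CPM (log2 fold change −1.75 ± 0.48, adjusted p = 0.0197). Tnf did not follow them, with overlapping levels of 404, 266 and 283 against 267 and 202 CPM (log2 fold change 0.44 ± 0.27, adjusted p = 0.322). Tgfb1 had 287, 287 and 263 against 313 and 316 CPM, without overlap, but was not called (adjusted p = 0.543). The higher genes were Alox5, the 5-lipoxygenase of leukotriene synthesis, at 502, 399 and 489.5 against 142 and 85.2 CPM (log2 fold change 2.03 ± 0.38, adjusted p = 0.00162), and Tnfsf12, which encodes TWEAK, at 44.5, 36.5 and 42.7 against 14.5 and 14.1 CPM (log2 fold change 1.52 ± 0.35, adjusted p = 0.00505). The counts were 6 lower and 0 higher without MHCII+CD11c+ library 2, with adjusted p above the threshold, among others, for Alox5 (0.0508), Tnfsf12 (0.0999) and Il10 (0.125), and without library 1 they were 7 and 1, with Tnfsf12 (0.0704) and Il10 (0.0681). Il10 was also not called without LYVE1+CX3CR1+ library 2 (0.061) or in a fit of the compared groups alone (0.121). That fit called 4 genes of the list lower and 2 higher.

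**Figure D3:**
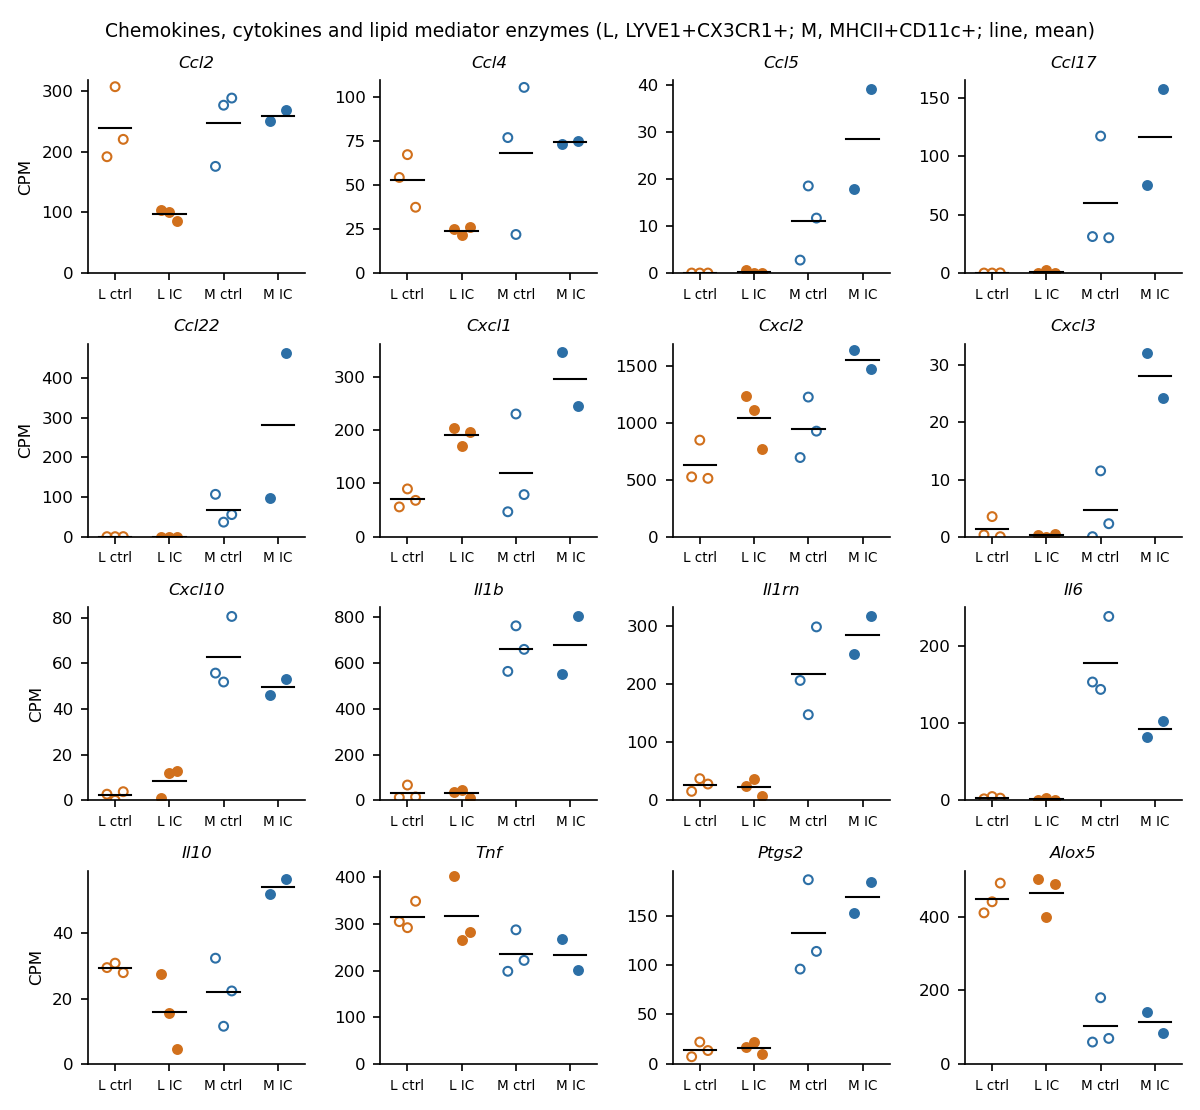
CPM in each library for 16 chemokine, cytokine and eicosanoid genes in 4 groups, LYVE1+CX3CR1+ and MHCII+CD11c+ macrophages from control mice and after IC, with a line at the mean of each group. Il1b, Il6 and Ptgs2 are lower in LYVE1+CX3CR1+ macrophages both after IC and in controls, while Tnf overlaps between the subsets after IC.

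Cytokine receptors were split, 6 of 26 called lower and 3 higher. Il1r2, the decoy receptor for IL-1, had no count in any LYVE1+CX3CR1+ library against 48 and 32.8 CPM (at least 39.5-fold lower, adjusted p = 4e-07). Il1r1, the signalling receptor, had no count in any LYVE1+CX3CR1+ library against 9.40 and 20.7 CPM (at least 14.7-fold lower, adjusted p = 0.000243). Csf2rb, the shared chain of the GM-CSF, IL-3 and IL-5 receptors, had 91.3, 46.3 and 18.3 against 422 and 546 CPM (log2 fold change −3.21 ± 0.41, adjusted p = 9.12e-05). Csf2ra, the GM-CSF-specific chain, had 157, 185 and 182 against 329.95 and 384 CPM (log2 fold change −1.03 ± 0.21, adjusted p = 0.00185). The receptors for CSF1 and TGF-beta were on the other side, as given above, together with Il17ra (175, 207 and 204 against 95.9 and 99.1 CPM (log2 fold change 1.0 ± 0.28, adjusted p = 0.0208)). Receptors for interferon-gamma and IL-10 had overlapping levels, with Ifngr1 at 226, 272 and 269.6 against 266 and 229 CPM and Il10ra at 386, 319 and 325 against 347 and 328 CPM (adjusted p = 0.924 and 0.964). Il17ra was not called without MHCII+CD11c+ library 1 or 2 (0.144 and 0.149), nor Csf2ra without library 2 (0.0515).

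Costimulatory and checkpoint genes had 9 of 16 called lower and 0 higher. Cd226, an activating receptor for ligands of the nectin family, had no count in any LYVE1+CX3CR1+ library against 122 and 202 CPM (at least 158-fold lower, adjusted p = 0.000254). Cd274, which encodes PD-L1, had 9.95, 8.18 and 2.90 against 46.4 and 41 CPM (log2 fold change −2.61 ± 0.45, adjusted p = 0.000309). Cd80, a ligand of CD28 and CTLA-4, had 10.8, 9.13 and 2.90 against 43.9 and 41.8 CPM (log2 fold change −2.46 ± 0.47, adjusted p = 0.00092). Slamf7, a homotypic receptor of leukocytes, had 11.7, 7.55 and 0 against 183 and 280.2 CPM (log2 fold change −5.09 ± 0.66, adjusted p = 0.000257). Cd86, the other ligand of CD28, overlapped at 96.5, 154 and 180.5 against 163 and 106 CPM (log2 fold change 0.09 ± 0.25, adjusted p = 0.869), and so did Cd83 (916, 825 and 736 against 899 and 928 CPM).

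C-type lectins had 11 of 23 called lower and 1 higher (8.42% and 3.52% of all genes), with a median of −1.82. Mgl2, a galactose-binding lectin, had 17.8, 5.67 and 15.8 against 312 and 407 CPM (log2 fold change −4.78 ± 0.40, adjusted p = 6.12e-07). Clec4a1 and Clec4a3, members of the DCIR cluster whose sequences are alike, had 22.5, 17 and 17.8 against 115 and 125 CPM (log2 fold change −2.65 ± 0.32, adjusted p = 5.08e-06) and 21.4, 9.13 and 18.3 against 80.4 and 91.3 CPM (log2 fold change −2.40 ± 0.31, adjusted p = 1.06e-05). Clec7a, the beta-glucan receptor dectin-1, had 80.5, 116 and 42.3 against 311 and 252 CPM and was not called (log2 fold change −1.82 ± 0.77, adjusted p = 0.16). Clec5a, which pairs with DAP12, was the gene called higher, at 117, 151 and 162 against 38.8 and 22.9 CPM (log2 fold change 2.21 ± 0.49, adjusted p = 0.00704), and was not called without MHCII+CD11c+ library 2 (adjusted p = 0.153).

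Integrins and adhesion molecules had 10 of 24 called lower and 0 higher. Beside Itgb7, Itgal and the gate gene Itgax, they included Cd44, the hyaluronan receptor that shares its ligand with LYVE1, at 569, 409 and 425 against 1513 and 1708 CPM (log2 fold change −1.78 ± 0.31, adjusted p = 0.000785), Selplg, the ligand of P-selectin, at 99.8, 78.4 and 65.1 against 250.04 and 305 CPM (log2 fold change −1.77 ± 0.23, adjusted p = 1.14e-05), and Itga4 at 258, 196 and 177 against 456 and 533 CPM (log2 fold change −1.23 ± 0.22, adjusted p = 0.00051). The beta 2 chain Itgb2 (1302, 1319 and 1323 against 1251 and 1074 CPM) and Itgam, the alpha chain CD11b (425, 369 and 387 against 316 and 433 CPM), were not called (adjusted p = 0.829 and 0.877). Of 18 Toll-like receptor genes and adaptors, 3 were called lower and 0 higher (8.42% and 3.52% of all genes). The lower genes were led by Tlr9, the endosomal sensor of CpG DNA, at 9.65, 6.92 and 5.39 against 60.7 and 81.5 CPM (log2 fold change −3.26 ± 0.40, adjusted p = 4.97e-06). Tlr2 (549, 483 and 435 against 273 and 192 CPM), Tlr4 (91.9, 67 and 88.4 against 62.3 and 39.9 CPM) and Tlr7 (117, 138 and 106 against 69 and 52.6 CPM) leaned the other way without being called (adjusted p = 0.0571, 0.211 and 0.184). Only 1 of the 3 was called without MHCII+CD11c+ library 2, while 5 genes were called lower without LYVE1+CX3CR1+ library 3.

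Of 32 transcription factors, 6 were called higher and 8 lower. On the LYVE1+CX3CR1+ side, Klf2 and Klf4, related factors that restrain inflammatory genes, had 760.4, 907 and 916 against 342 and 437 CPM (log2 fold change 1.14 ± 0.18, adjusted p = 0.000106) and 1418, 1569.9 and 1927 against 819 and 928 CPM (log2 fold change 0.91 ± 0.20, adjusted p = 0.00343). On the other side, Irf5, which drives inflammatory cytokine genes, had 176, 165 and 141 against 419 and 544 CPM (log2 fold change −1.58 ± 0.17, adjusted p = 1.17e-06). Irf4, a factor of dendritic cells and alternatively activated macrophages, had 36.3, 64.5 and 68 against 163 and 224 CPM (log2 fold change −1.78 ± 0.25, adjusted p = 3.43e-05). Runx3, a factor of dendritic cells and T cells, had 4.10, 14.5 and 3.32 against 84.8 and 90.3 CPM (log2 fold change −3.56 ± 0.47, adjusted p = 1.59e-05). Egr2 had 75.2, 93.5 and 87.9 against 212 and 272 CPM (log2 fold change −1.50 ± 0.28, adjusted p = 0.000833). Spi1, which encodes PU.1, and Zeb2 were not called (log2 fold change −0.40 ± 0.19, adjusted p = 0.201, and log2 fold change 0.09 ± 0.16, adjusted p = 0.803). Tcf4 was not called without MHCII+CD11c+ library 2 (adjusted p = 0.128), nor were Klf4 and Irf7 without library 1 (0.0642 and 0.239).

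Receptors for nerve-derived signals and purines had 6 of 19 called higher and 4 lower. Ramp1, the partner chain of the receptor for CGRP (the peptide of pain neurons), had 0.293, 3.46 and 0 against 42.6 and 40.3 CPM (log2 fold change −4.96 ± 0.69, adjusted p = 3.28e-05), while Calcrl, the receptor chain itself, overlapped at 39.5, 73.3 and 29 against 39.5 and 37.4 CPM (log2 fold change 0.30 ± 0.35, adjusted p = 0.651). The partner chains that turn the same receptor towards adrenomedullin were opposite to each other: Ramp3 had 0.293, 0 and 0 against 22.2 and 20.9 CPM (ratio of pooled counts 195, 95% interval 34.6 to 7715, adjusted p = 0.00193). Ramp2 had 7.90, 9.76 and 21.2 CPM against no count in either MHCII+CD11c+ library (at least 26.1-fold higher, adjusted p = 0.00669). Receptors for ADP, P2ry12 and P2ry13, had 80.7, 76.5 and 107 against 16 and 8.61 CPM (log2 fold change 2.82 ± 0.53, adjusted p = 0.00132) and 31.9, 56.3 and 34.8 against 2.94 and 3.12 CPM (log2 fold change 3.75 ± 0.56, adjusted p = 6.99e-05). Adora2a, an adenosine receptor, had 0, 0.944 and 0 against 12.6 and 19.2 CPM (ratio of pooled counts 46.8, 95% interval 15.8 to 229, adjusted p = 0.000475). Leaving out MHCII+CD11c+ library 2 gave 2 higher and 3 lower, with adjusted p above the threshold, among others, for P2ry12 (0.052), Entpd1 (0.113), P2rx7 (0.133) and Ramp2 (0.0938). Ramp2 was also not called without library 1 (0.0805).

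Growth factors had 4 of 24 called higher and 2 lower (3.52% and 8.42% of all genes), so the lower count was near its share. Matrix genes with their proteases had 4 of 27 higher and 7 lower. Bmp2, a BMP ligand, had 86, 65.8 and 100.4 against 14.4 and 6.41 CPM (log2 fold change 3.0 ± 0.63, adjusted p = 0.00513). Vegfb had 24, 35.6 and 41.9 against 6.61 and 9.35 CPM (log2 fold change 2.08 ± 0.44, adjusted p = 0.00231), whereas Vegfa lay the other way without being called (8.19, 1.57 and 15.3 against 88.1 and 86.5 CPM, adjusted p = 0.07). Mmp19 and Mmp12, matrix metalloproteases, had 36.3, 5.04 and 31.9 against 448 and 481 CPM (log2 fold change −4.25 ± 0.58, adjusted p = 0.000365) and 0.585, 0 and 0.415 against 51.7 and 88.3 CPM (ratio of pooled counts 204, 95% interval 69.6 to 992, adjusted p = 0.000316). Adam8, a membrane protease of leukocytes, had 46.5, 10.4 and 19.1 against 700.3 and 792 CPM (log2 fold change −4.87 ± 0.67, adjusted p = 0.000489). Thbs1, thrombospondin-1, had 9.65, 17.6 and 0 against 285 and 226 CPM (log2 fold change −4.76 ± 0.77, adjusted p = 0.00151). Timp2, an inhibitor of metalloproteases, had 2548, 2286 and 2662 against 505 and 249 CPM (log2 fold change 2.73 ± 0.59, adjusted p = 0.0105), opposite to Timp1, which was among the genes called lower. Hpgd, which inactivates prostaglandins, had 148, 174 and 219 against 28.9 and 21.6 CPM (log2 fold change 2.83 ± 0.51, adjusted p = 0.00194). Bmp2 (adjusted p = 0.113), Nrp1 (0.0515), Timp2 (0.165), Hpgd (0.0696) and Sparc were not called without MHCII+CD11c+ library 2, where 0 matrix genes remained higher, and Vegfb was not without library 1 (0.069).

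Genes of lipid handling had 9 of 24 called lower and 3 higher. Lpl, lipoprotein lipase, had 29.3, 35.9 and 25.7 against 973 and 1939 CPM (log2 fold change −5.58 ± 0.42, adjusted p = 4.43e-07). Fabp5, a fatty acid carrier, had 20.8, 2.52 and 0 against 181 and 246 CPM (log2 fold change −4.71 ± 0.94, adjusted p = 0.00624). Hmgcs1, an enzyme of cholesterol synthesis, was also called lower. Genes of cholesterol efflux were divided, with Abca1 higher at 1148, 1159 and 1305 against 492 and 346 CPM (log2 fold change 1.52 ± 0.24, adjusted p = 0.000151) and Abcg1 among the lower genes. Apoe had 3401, 3312 and 3308 against 3058 and 2166 CPM and was not called (log2 fold change 0.35 ± 0.50, adjusted p = 0.722). Leaving out MHCII+CD11c+ library 2 gave 3 lower and 1 higher, and Fabp5 was at 0.0524.

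Type I interferon-stimulated genes had 11 of 28 called lower and 0 higher, with a median of −1.08, and in 19 of 28 the LYVE1+CX3CR1+ libraries lay below both others (27.8% of all genes). Mx1, an antiviral GTPase, had 5.27, 10.7 and 10.4 against 96.7 and 88.3 CPM (log2 fold change −3.41 ± 0.55, adjusted p = 0.000488). Zbp1, a sensor of Z-form nucleic acid, had 36.3, 14.8 and 18.7 against 90.9 and 81.5 CPM (log2 fold change −1.88 ± 0.32, adjusted p = 0.000282). Isg15, a ubiquitin-like modifier, had 8.48, 12 and 0.830 against 41.6 and 34.1 CPM (log2 fold change −2.37 ± 0.57, adjusted p = 0.00768). Irf7, the factor that amplifies interferon genes, had 55.6, 39.3 and 52.3 against 166 and 102 CPM (log2 fold change −1.45 ± 0.39, adjusted p = 0.0214). Usp18 and Bst2 were not called (adjusted p = 0.46 and 0.88). The count was sensitive to single libraries, at 3 without MHCII+CD11c+ library 1 (Isg15 at 0.0561 and Irf7 at 0.239), 7 without library 2, and 6 and 7 without LYVE1+CX3CR1+ libraries 2 and 3 (Irf7 at 0.0789 and 0.0654).

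Cell cycle genes had 14 of 28 called lower and 0 higher, with a median of −2.65, and 27 of 28 were lower without overlap (27.8% of all genes). Mki67, the proliferation marker, had 92.2, 91 and 91.7 against 333 and 402 CPM (log2 fold change −2.0 ± 0.37, adjusted p = 0.00141). Aurkb, a mitotic kinase, had no count in any LYVE1+CX3CR1+ library against 15.9 and 26 CPM (at least 20.5-fold lower, adjusted p = 2.95e-05). Ccna2, cyclin A2, had 2.63, 1.26 and 0 against 37.5 and 27.1 CPM (log2 fold change −4.52 ± 0.88, adjusted p = 0.00123). Mcm5 of the replicative helicase had 13.5, 8.50 and 7.05 against 52 and 77 CPM (log2 fold change −2.72 ± 0.51, adjusted p = 0.000848). Tk1, thymidine kinase, had 7.61, 12.6 and 12 against 56 and 53.5 CPM (log2 fold change −2.35 ± 0.36, adjusted p = 8.24e-05). Pcna, the sliding clamp of replication, was not called (118, 122 and 69.7 against 125 and 126 CPM, log2 fold change −0.28 ± 0.24, adjusted p = 0.505). Top2a, a topoisomerase of dividing cells, had 22.2, 17 and 9.13 against 121 and 143 CPM (log2 fold change −3.01 ± 0.74, adjusted p = 0.0195) and lost its call without MHCII+CD11c+ library 1 or 2 (adjusted p = 0.0705 and 0.128) and without LYVE1+CX3CR1+ library 2 or 3 (0.0542 and 0.0721).

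**Figure D4:**
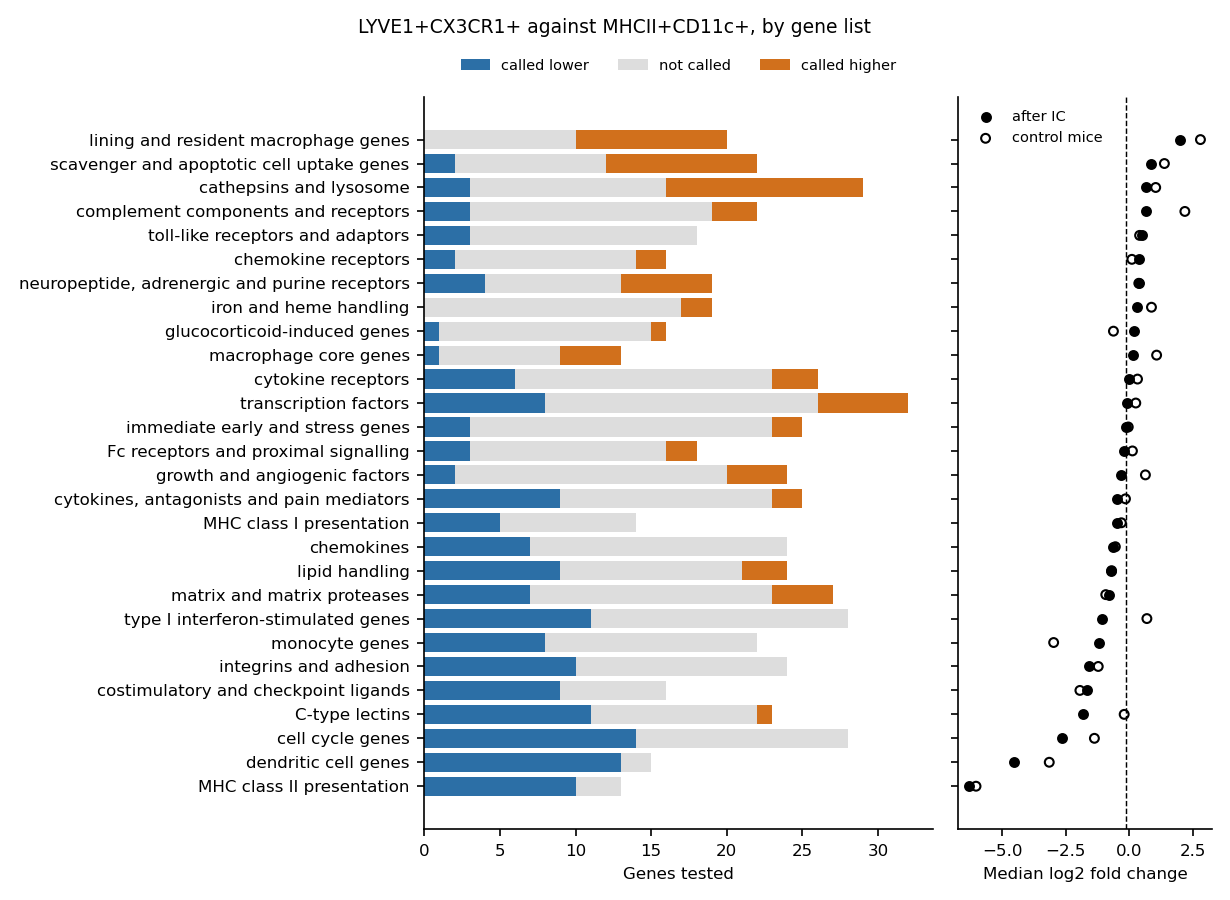
Left, members of each of the 28 gene lists (markers of other cells not included) that were higher or lower in the LYVE1+CX3CR1+ subset after IC, or not called. Right, the median log2 fold change of each list after IC (filled, genes at the floor set to their bound) and in control mice (open, as fitted), with a dashed line at the median of all genes after IC, −0.12. MHC class II and dendritic cell genes have the lowest medians of the 28 after IC and lining genes the highest.

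The same subsets from control mice (n = 3 libraries each) show how much of the difference was there without IC. In controls 2326 of 15272 genes were called (15.2%), 1196 higher and 1130 lower. Of the genes called after IC, 1198 were also called in controls, which is 65.7% of the calls after IC and 51.5% of those in controls, and 1196 of them lay in the same direction. The comparisons share no library, and group size and depth also differed between them. The test of the difference itself, the subset contrast after IC minus that in controls, called 5 genes (0.0327%) by edgeR, with 1225 (8.02%) at an unadjusted p under 0.05 and 42 called by DESeq2. By list, 17 of the 28 interferon-stimulated genes were at an unadjusted p under 0.05 in this test, 10 of 23 C-type lectins and 9 of 24 chemokines, but 0 of these genes were called. The median log2 fold change of the interferon-stimulated genes was 0.70 in controls and −1.08 after IC, and that of the cell cycle genes was −1.37 and −2.65.

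Slc37a2, a sugar-phosphate carrier of macrophages, turned over between the conditions. It had 129, 103 and 135 against 19.8, 43.7 and 25.3 CPM in controls, higher in LYVE1+CX3CR1+ macrophages, and 33.1, 35.3 and 31.9 against 59.2 and 70.9 CPM after IC, lower in them (difference of log2 fold changes −3.0 ± 0.38, adjusted p = 0.000359). Its call after IC alone (adjusted p = 0.0265) was lost without MHCII+CD11c+ library 1 or 2 and without LYVE1+CX3CR1+ library 1 or 3. The call was also lost at equal depth (0.134), with voom (0.0548) and in the compared groups alone (0.0872). With the replicate number as a block (0.0723) and in the test for at least 2-fold it was lost too. Over the alternatives its adjusted p ran from 0.014 to 0.962, the highest value being from the test for at least 2-fold. Map3k6, a kinase of the stress MAP kinase cascade, had 16.4, 16.5 and 15.6 against 88.3, 59.1 and 96.8 CPM in controls, where it was lower in LYVE1+CX3CR1+ macrophages, and overlapped after IC at 55.3, 83.7 and 60.2 against 56.4 and 64.9 CPM (difference of log2 fold changes 2.46 ± 0.38, adjusted p = 0.00547). Runx3 was near 0 in the LYVE1+CX3CR1+ controls (0.157, 0 and 0.419 against 84.9, 67.1 and 84.7 CPM) and above the floor in each LYVE1+CX3CR1+ library after IC (difference of log2 fold changes 4.71 ± 0.82, adjusted p = 0.023). In the other direction, H2-Eb1 had 3.78, 4.59 and 7.54 against 4472, 2747 and 4217 CPM in controls and no count in LYVE1+CX3CR1+ macrophages after IC (adjusted p = 3.47e-05 for the difference). Tgtp2, an interferon-inducible GTPase whose reads can be shared with its copy Tgtp1, had 8.50, 6.22 and 5.86 against 15.7, 16.7 and 25.3 CPM in controls and 1.17, 0 and 0 against 34.4 and 36.8 CPM after IC (difference of log2 fold changes −4.79 ± 0.76, adjusted p = 0.00738).

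**Figure D5:**
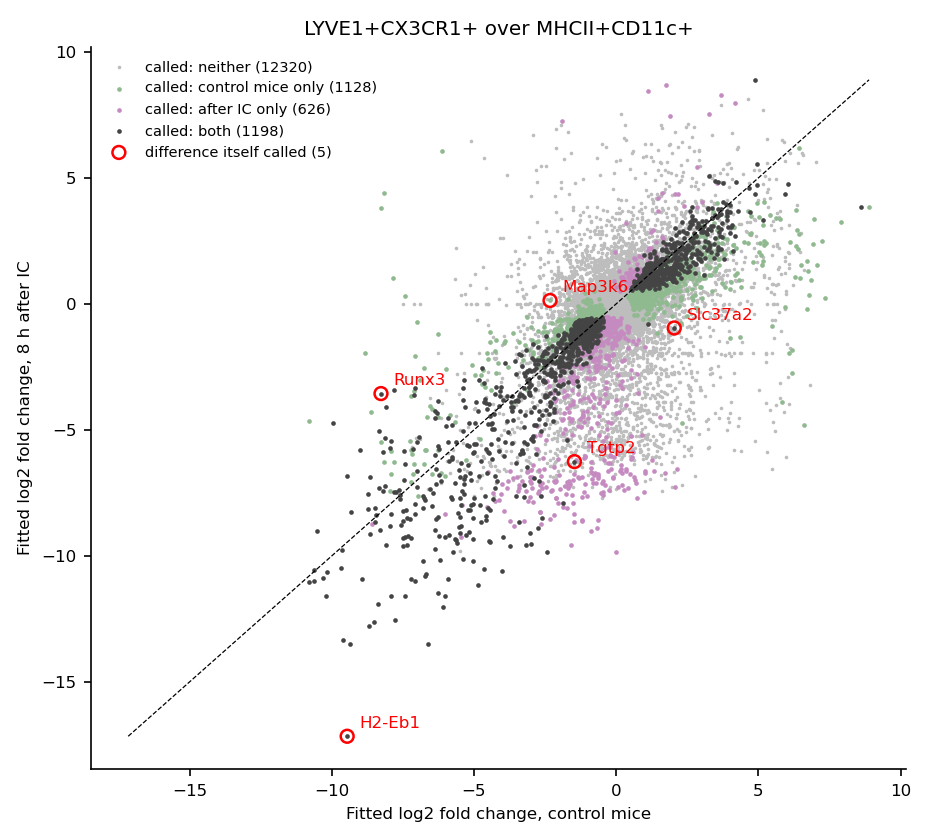
Fitted log2 fold change of LYVE1+CX3CR1+ over MHCII+CD11c+ macrophages in control mice (horizontal axis) and after IC (vertical axis), 1 point per gene tested. Genes are coloured as called in neither (12320), in controls only (1128), after IC only (626) or in both (1198), and the 5 genes called in the test of the difference are named.

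Markers of other cells were low in sum in all 5 libraries. Fibroblast markers summed to 33.1, 143 and 47.7 CPM in the LYVE1+CX3CR1+ libraries and 20.3 and 56.3 CPM in the MHCII+CD11c+ libraries, highest in LYVE1+CX3CR1+ library 2, with Lum, Thy1, Pi16 and Cthrc1 at 0 in the former group. Endothelial markers summed to 8.19 to 43.7 against 39.4 and 43.8 CPM, neutrophil markers to 12.6 to 32.8 against 26.4 and 29.9 CPM, and B cell markers to 8.78 to 53.9 against 30.0 and 39.4 CPM. T and NK cell markers were at 0 in the LYVE1+CX3CR1+ libraries and at 0.588 and 0.916 CPM in the others. Mast cell markers reached 9.95 against 23.4 and 47.1 CPM, and Schwann cell markers 44.0 to 50.03 against 89.5 and 132 CPM, both without overlap. Single markers were called, Prg4 of the fibroblast list higher in LYVE1+CX3CR1+ macrophages, and Pi16 of fibroblasts, Kdr of endothelium, Kit of mast cells, Cd79b of B cells and Mbp of Schwann cells lower. The part of these cells in the differences was not tested.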

How the data were processed

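Bulk RNA-seq counts of 17 libraries of sorted synovial macrophages were used, and the comparison rests on 3 LYVE1+CX3CR1+ and 2 MHCII+CD11c+ libraries after IC, grouped by their labels. As deposited by the authors, the values are counts, whole numbers of reads per gene without normalization. By the methods of the study, libraries came from a stranded kit for low input, and paired reads were trimmed (Trim Galore, checked with FastQC), aligned to mm10 with HISAT2 and counted with featureCounts. Versions, annotation, strand setting and handling of multiply aligned reads are not given in the sources used here, so counts of near-identical, overlapping or antisense genes are uncertain. There was 1 column that matched no sample label, and it was not used.

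The model was fitted with edgeR 4.0.16 under R 4.3.3. The filter on low counts was filterByExpr, library sizes were scaled by TMM, and 1 mean per group fitted to all 17 libraries (glmQLFit, robust, 11 residual degrees of freedom, biological coefficient of variation 45.1%). The subset contrast after IC, the same in controls, and their difference each had a quasi-likelihood F test with Benjamini-Hochberg adjustment, and every gene's p comes from edgeR at a threshold of 0.05. Where DESeq2 1.42.0, limma 3.58.1 (voom) or sva 3.50.0 were used instead, this is stated. Named genes were the 15 higher and 15 lower with the smallest p among called genes without overlap, the called genes of the test of the difference, and members of 28 lists; markers of other cells formed 10 more. The genes compared, the lists and the comparison itself were chosen with earlier results of these data known, so list counts carry no test of their own. Of 654 list entries, 632 were in the table. Coordinates are those of GRCm38, counted from 1, and promoters are from RefSeq. Intervals and floors (3 counts) cover counting error only, since amplified reads are not independent molecules. The alternatives changed the scaling, filter, test, depth, length correction and libraries, with 1 choice at a time. Values of some list members are not reported here.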

Additional observations from a re-analysis of the deposited data

Results flagged for a closer look

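The subset difference after IC (LYVE1+CX3CR1+ over MHCII+CD11c+) differed from that in control mice for 5 genes by the interaction term of edgeR. For H2-Eb1, an MHC class II beta chain, the fitted difference of log2 fold changes was −7.70. Because all 3 LYVE1+CX3CR1+ libraries after IC had no count, this value depends on the prior count and is no measure of size. It was called in 22 of 23 alternatives, and with voom the adjusted p was 0.263. For Slc37a2 the difference was −3.0 and was called in 23 of 23. Map3k6 had 2.46 (21 of 23), although its libraries overlapped after IC. Tgtp2 had −4.79 (20 of 23), with at most a few reads in the LYVE1+CX3CR1+ libraries after IC. Runx3 had 4.71 (14 of 23), with LYVE1+CX3CR1+ controls at the floor.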

How the results depend on the processing

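After IC, 1824 genes were called (538 higher, 1286 lower), and counts within 1.5 times of these came from RLE size factors, library totals, no or a stricter filter, equal depth, a length offset and, for the total, DESeq2 and voom. DESeq2 called 1015 and voom 851 higher. Fitting the compared groups alone called 1153 (631 lower), testing for at least 2-fold called 535 (86 higher, 449 lower), an adjusted p under 0.01 called 936 (250 and 686), and surrogate variables called 3362 (817 and 2545). Leaving out 1 library gave 666 to 1730 calls (106 to 507 higher, 560 to 1223 lower), lowest without MHCII+CD11c+ library 2. The higher direction held 29.5% of calls, but 42.7% with DESeq2, 39.8% with a stricter filter and 45.3% in the compared groups alone. Over the 10936 genes common to all fits the median log2 fold change was −0.11, and −0.01 with DESeq2, RLE or totals, 0.00 with the stricter filter, −0.20 with voom and −0.21 with surrogate variables.

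The test of the difference from controls called 5 genes, but 42 with DESeq2, 20 without a filter, 13 in the compared groups alone, 3 for at least 2-fold, 3 at equal depth, 64 with surrogate variables, 10 with a length offset and 3 to 56 on leaving out 1 library (3 without MHCII+CD11c+ library 1 after IC, 56 without MHCII+CD11c+ control library 2).

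With the replicate number as a block, 1754 genes were called after IC (540 higher, 1214 lower) and 35 in the test of the difference. Deviations of same-numbered libraries from their group means had r 0.0358 and 0.00324 over genes (2 pairs). With 2 MHCII+CD11c+ libraries these deviations are mirror images, so the values cannot show whether mice were shared. The numbers were not taken to pair the samples.

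Of the values of the 164 named genes called after IC under the alternatives, 2627 of 2787 kept call and direction, 160 lost the call and 0 reversed, and 94 genes held throughout. Calls lost numbered 58 in the test for at least 2-fold and 40 without MHCII+CD11c+ library 2. Map3k6, not called after IC, ran from −0.0592 to 0.269 on leaving out 1 library, and Fcgr2b from −0.197 to 0.321, with −0.0743 under a length offset. Depth limits the LYVE1+CX3CR1+ side, where 3 counts equal 0.878 to 1.24 CPM.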

Other observations

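MHCII+CD11c- macrophages after IC (3 libraries), sorted beside the other subsets, had a mean level between those of LYVE1+CX3CR1+ and MHCII+CD11c+ macrophages for 454 of the 538 genes called higher (84.4%) and 1055 of the 1286 called lower (82.0%), against 44.6% of all genes tested. This is a description without a test, since a wide gap between the outer groups leaves more room between them.

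Immediate early and stress genes had 2 of 25 called higher and 3 lower. For this list and those after it, the shares over all genes tested were 3.52% higher and 8.42% lower. Jun had 2528, 2524 and 2623 against 1586 and 1521 CPM (log2 fold change 0.72 ± 0.21, adjusted p = 0.0227) and Fos 3870.3, 3531 and 4914 against 3253 and 3413 CPM (log2 fold change 0.30 ± 0.18, adjusted p = 0.317), whereas Fosl2 had 439, 473 and 401 against 938 and 972 CPM (log2 fold change −1.13 ± 0.18, adjusted p = 0.00017) and Nr4a2 159.7, 169 and 119 against 355 and 430.2 CPM (log2 fold change −1.39 ± 0.27, adjusted p = 0.00092). Jun was not called without MHCII+CD11c+ library 1 or 2 or LYVE1+CX3CR1+ library 3 (adjusted p = 0.113, 0.186 and 0.0502). Genes induced by glucocorticoids had 1 of 16 on each side, Tsc22d3 higher at 494, 433 and 485 against 323 and 219.9 CPM (log2 fold change 0.79 ± 0.23, adjusted p = 0.0254) and Errfi1 lower at 66.7, 56.7 and 64.3 against 134 and 118 CPM (log2 fold change −1.01 ± 0.32, adjusted p = 0.0434), and 0 stayed called without MHCII+CD11c+ library 2 (Tsc22d3 at 0.403 and Errfi1 at 0.139). Tsc22d3 was also not called without LYVE1+CX3CR1+ library 1 (0.0541). Errfi1 lost its call in 11 of 17 alternatives, with every single library left out (0.0721 to 0.198), at equal depth (0.135), with a stricter filter (0.0601), RLE size factors (0.0558) or library totals (0.0541), with DESeq2 (0.052) and in the test for at least 2-fold. Genes for iron and heme had 2 of 19 higher (Cd163 and Lrp1) and 0 lower, with Hmox1, heme oxygenase 1, at 541, 491 and 571 against 435 and 355 CPM and not called (log2 fold change 0.44 ± 0.20, adjusted p = 0.157).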
